A study of Mus musculus with 12 samples.

Results

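The 8 retinal progenitor regulators Fgf15, Atoh7, Foxn4, Neurog2, Hes5, Rax, Six6 and Six3 were followed through RNA sequencing of mouse retinal pigment epithelium (RPE), the pigmented sheet behind the neural retina. They were taken by symbol from a table of 13942 genes, in which all 8 were found and tested. The 12 libraries formed 4 groups of 3. These were Sox9 conditional knockout (cKO) at postnatal day 5 (P5), wild type (WT) at P5, cKO at embryonic day E15.5 and WT at E15.5, all on strain C57BL/6J. The labels do not say which Cre line or which exons of Sox9 were used, how RPE was separated from its neighbours, or whether replicates came from separate animals, so p-values measure only the spread between these samples. Each value is a gene count that the authors quantile-normalised across libraries, with everything under 50 set to 50; the sequencing depth behind it is unknown.

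These genes belong to the optic vesicle and the dividing cells of the embryonic neural retina. Rax, Six3 and Six6 are homeobox factors of the eye field, the domain from which retina and RPE both arise. Fgf15 is a secreted fibroblast growth factor made by retinal progenitors, and Hes5 is a repressor that Notch signalling turns on to hold progenitors back from differentiation. Atoh7, Neurog2 and Foxn4 act in progenitors that are about to make neurons: Atoh7 is the basic helix-loop-helix (bHLH) factor needed for retinal ganglion cells, Neurog2 is a proneural bHLH factor, and the forkhead factor Foxn4 is needed for horizontal cells and most amacrine cells. In mature RPE the neural retinal programme is normally low. In bulk tissue, fewer cells of a type and less RNA per cell cannot be told apart.

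RefSeq promoter windows (build GRCm38.p6) were matched for 6 of the 8 genes, all but Fgf15 and Rax, and the 250 bases before the RefSeq start were searched on both strands for letters tied to the Notch effector RBPJ (TGGGAA), to bHLH factors (E-box, CANNTG), to HES repressors (N-box, CACNAG), to SOX factors (ACAAT) and to homeodomain factors (TAATTA). Those of Hes5, Neurog2 and Atoh7 are shown because they held the RBPJ, SOX and E-box letters among the members. Only bases before both the RefSeq and the GENCODE start are printed, 5′ to 3′ on the strand of the gene. For Hes5 (chr4:154960673-154960922, plus strand) and Neurog2 (chr3:127632886-127633134, plus strand) capitals mark RBPJ and SOX letters, and for Atoh7 (chr10:63099535-63099650, plus strand) they mark the E-box.
Hes5: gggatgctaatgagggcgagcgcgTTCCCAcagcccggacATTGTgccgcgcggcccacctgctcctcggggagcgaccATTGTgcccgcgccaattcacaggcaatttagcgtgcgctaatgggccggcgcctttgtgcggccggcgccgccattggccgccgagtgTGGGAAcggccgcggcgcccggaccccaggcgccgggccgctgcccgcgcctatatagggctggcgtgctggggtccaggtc
Neurog2: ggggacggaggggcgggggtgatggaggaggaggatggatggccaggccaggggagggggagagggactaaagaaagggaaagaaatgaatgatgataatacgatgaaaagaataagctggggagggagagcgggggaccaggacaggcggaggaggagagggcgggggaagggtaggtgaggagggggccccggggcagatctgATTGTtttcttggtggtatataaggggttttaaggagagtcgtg
Atoh7: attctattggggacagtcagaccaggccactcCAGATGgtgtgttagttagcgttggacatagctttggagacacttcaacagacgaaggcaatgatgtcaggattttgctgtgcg
The Hes5 window held RBPJ letters at 2 places, on opposite strands, and SOX letters at 2 places, none of them overlapping. Neurog2 had SOX letters at 1 place and no RBPJ letters. The whole Atoh7 window held RBPJ letters at 1 place and an E-box at 3, of which 1 lies in the stretch printed. Hes5 also had 1 E-box, and Foxn4 and Six6 had 1 N-box each. No other match was found in the 6 windows. Of 32851 promoter windows of the same length, 21.6% held the RBPJ letters, 27.7% the SOX letters, 66.2% an E-box, 36.7% an N-box and 4.84% the homeodomain letters.

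Sox9 itself was not lower in the libraries labelled cKO. It had 2136, 2384 and 2928 in cKO against 964, 1500 and 1111 in WT at P5 (log2 fold change 1.07 ± 0.17, SE, limma adjusted p = 0.0316), which goes against the label, and 1034, 990 and 1006 in cKO against 1156, 1060 and 932 in WT at E15.5. A count over a whole gene does not test a deleted part alone. In what follows cKO stands for the libraries labelled cKO, and every direction rests on those labels. Of the markers that define the tissue, the melanin enzyme Dct stood between 15362 and 37268 at P5 and between 4013 and 7560 at E15.5, whereas the visual cycle genes Rpe65 and Rgr were at the floor of 50 in all 6 E15.5 libraries. At P5, Rpe65 was at that floor throughout the 3 cKO libraries, against 564, 479 and 178 in WT, and Rgr had 93.2, 199 and 204 in cKO, against 10706, 14597 and 6784 in WT. Libraries of 1 group correlated at 0.840 to 0.977 across genes at P5 and at 0.985 to 0.993 at E15.5.

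**Figure D1:**
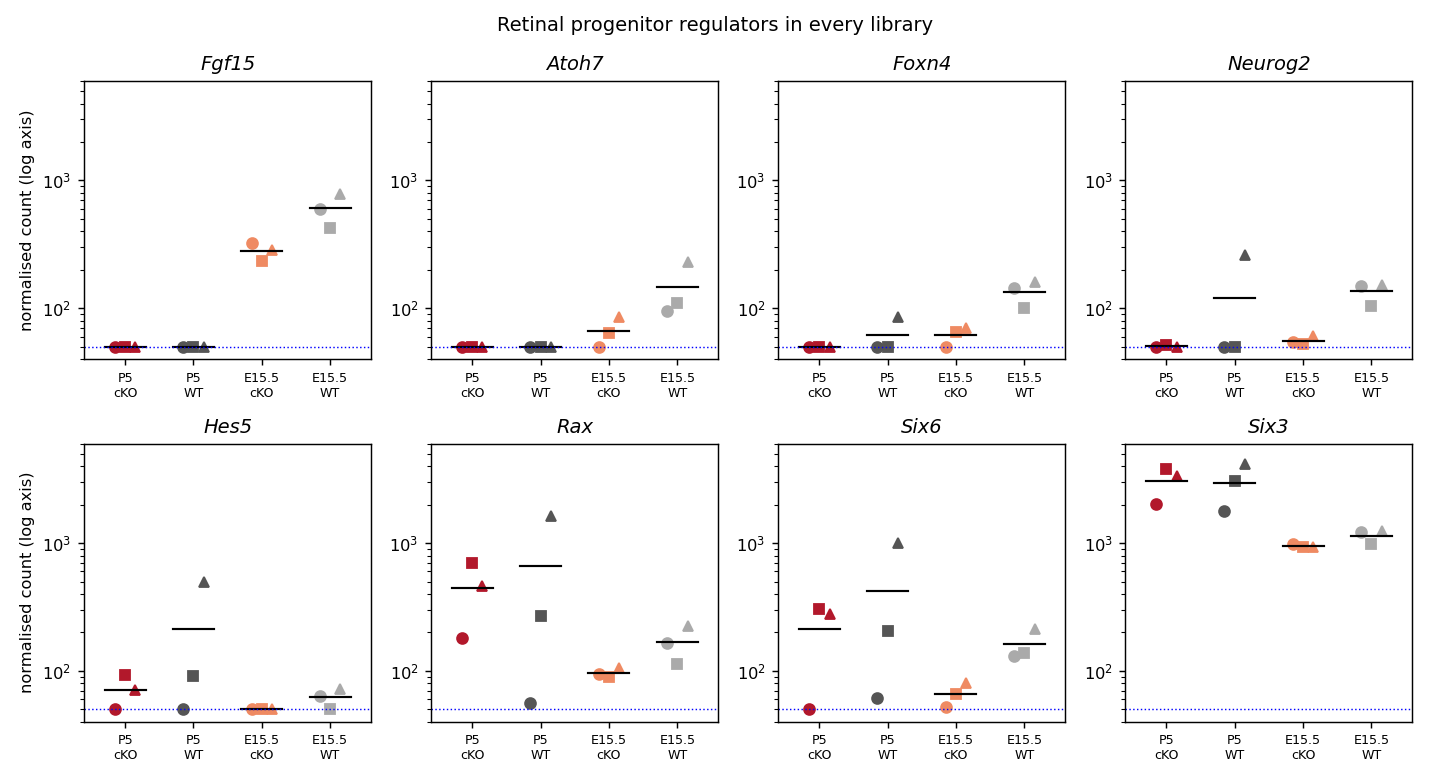
Normalised counts of the 8 members (log axis) in P5 cKO, P5 WT, E15.5 cKO and E15.5 WT libraries; points are libraries (circle, square and triangle for replicates 1, 2 and 3), black bars are means, and the dotted line is the floor of 50. At E15.5 the 3 cKO points lie below the 3 WT points for 6 of the 8 genes, and at P5 the highest point for Rax, Six6, Six3 and Hes5 is WT replicate 3.

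At E15.5 each of the 8 genes had a lower mean in cKO than in WT, where 49.7% of all genes had a log2 fold change under 0. For 6 of them every cKO library lay below every WT library, which held for 2.99% of all genes. None was called by limma over all genes. The mean counts differed by about 2-fold in 5 genes: 2.15-fold for Fgf15, 2.18-fold for Foxn4, 2.19-fold for Atoh7, 2.42-fold for Six6 and 2.43-fold for Neurog2, all lower in cKO.

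The progenitor signal Fgf15 (chromosome 7, 144896531 to 144900953, GRCm38) had 324, 236 and 285 in cKO at E15.5, against 602, 426 and 788 in WT. It is the one of these 5 that stood well clear of the floor in all 6 libraries. Its means were 282 ± 44.5 in cKO and 605 ± 181 in WT (SD, n = 3 each), a log2 fold change of -1.07 ± 0.21 (SE) with a limma adjusted p of 1. The exact two-sided permutation test gave 0.1, the smallest p that 3 libraries against 3 allow.

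The factors of neurogenic progenitors were near the floor in cKO. Neurog2 (chromosome 3, 127633135 to 127635631) had 54.7, 52.0 and 60.8 in cKO at E15.5, against 150, 105 and 152 in WT. The cKO libraries thus sat just over the floor, and no library of either genotype was at it. The log2 fold change was -1.25 ± 0.51 (SE, limma adjusted p = 1). Without P5 WT replicate 3, a library that enters this test only through the pooled spread, the same log2 fold change had an SE of 0.15 and a limma adjusted p of 0.0422; library weights also gave a call (-1.17, limma adjusted p = 0.0237).
Atoh7 (chromosome 10, 63099651 to 63101279) had 50, 63.9 and 85.8 in cKO at E15.5, against 95.5, 110 and 232 in WT. Its highest cKO library and its lowest WT library were close, and 1 cKO library was at the floor. The log2 fold change was -1.04 ± 0.29 (SE, limma adjusted p = 1).
Foxn4 (chromosome 5, 114254164 to 114273807) had 50, 64.9 and 70.3 in cKO at E15.5, against 144, 99.8 and 161 in WT. Again 1 cKO library was at the floor and no WT library was. The log2 fold change was -1.10 ± 0.24 (SE, limma adjusted p = 1).

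Among the eye field factors, the libraries of the genotypes did not overlap at E15.5 for Six6 and, narrowly, for Rax, whereas they did for Six3. Six6 (chromosome 12, 72939892 to 72944899) had 52.1, 66.4 and 80.9 in cKO, against 132, 138 and 214 in WT (log2 fold change -1.25 ± 0.90, SE, limma adjusted p = 1). Rax (chromosome 18, 65928277 to 65939787) had 94.9, 89.3 and 105 in cKO, against 166, 114 and 226 in WT (-0.75 ± 0.95, SE, limma adjusted p = 1). The SE of both pools the spread over P5, where these genes varied most; in the 6 E15.5 libraries alone the SE was 0.26 for each, and neither was called. Six3 (chromosome 17, 85613608 to 85629302) had 984, 938 and 925 in cKO, against 1217, 977 and 1234 in WT, so that 1 WT library fell within the cKO range. Its log2 fold change was -0.26 ± 0.29 (SE, limma adjusted p = 1). Six3 shares 4791 bases with Six3os1, a transcript of the other strand that had 1220, 1229 and 1299 in cKO and 1406, 1131 and 1379 in WT at E15.5; the strand setting of the counting is not given in the sources used here, so reads of these 2 genes may not be told apart.

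The Notch effector Hes5 (chromosome 4, 154960923 to 154962371) stayed at the floor throughout cKO at E15.5, against 63.6, 50 and 72.5 in WT. With 1 WT library at the floor too, a difference was not detectable (log2 fold change -0.29 ± 0.64, SE, limma adjusted p = 1). Its promoter carries the RBPJ letters shown above.

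**Figure D2:**
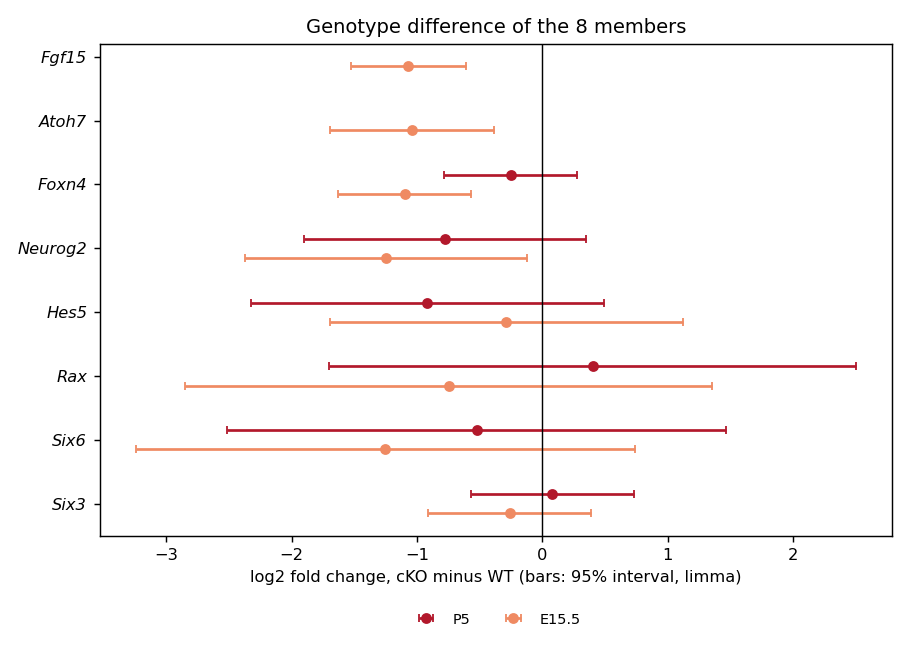
Log2 fold change of cKO minus WT for each member at P5 (dark red) and E15.5 (light red), with the 95% interval of the limma fit of all 12 libraries. Points at E15.5 lie between -1.25 and -0.26; P5 points for Fgf15 and Atoh7 are left out because both groups were at the floor.

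Over all 13523 genes tested at E15.5, limma called 1 gene, or 0.00739%, and none of the 8. At an unadjusted p under 0.05 it counted 4 of the 8 (Fgf15, Foxn4, Atoh7 and Neurog2), all lower, against 0.362% of all genes. In the 6 E15.5 libraries alone it counted 6 of the 8, adding Six6 and Rax, against 2.74% of all genes. Libraries of the genotypes did not overlap, with cKO lower, in 6 of the 8 genes and in 2.99% of all genes; with cKO higher they did so in none of the 8 and in 2.11% of all genes. A log2 fold change under -1 was found in 5 of the 8 and in 0.126% of all genes, 17 in number. The median log2 fold change was -1.05 over the 8 and 0.00 over all genes. These 8 genes were chosen with earlier results of these data known, so the counts describe them and test nothing.

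Markers of other cells at E15.5 are set beside this. The mean log2 level of 15 mesenchyme markers was 12.63 to 12.84 in cKO and 12.66 to 12.87 in WT. That of 15 skeletal muscle markers was 11.22 to 11.93 in cKO and 11.24 to 12.16 in WT. The libraries thus held RNA typical of tissue around the RPE, and the share of RPE in them was not measured. The mean log2 level of 22 retinal neuron markers was 8.14, 7.67 and 7.45 in cKO and 7.72, 7.54 and 7.84 in WT, with summed levels of 11513 to 18772 in cKO and 13926 to 16868 in WT. Of these 22, 2 never left the floor in cKO and 6 never left it in WT. With that mean as a covariate, the members' differences ran from -1.32 (Six6) to -0.28 (Six3), with Fgf15 at -1.07. Of 20 of these markers tested, 8 were lower and 12 higher in cKO. Dcx had 1652, 827 and 422 in cKO against 654, 715 and 473 in WT. Sncg had 76.7, 86.1 and 128 in cKO against 214, 157 and 327 in WT. As the list mixes such genes, its mean does not measure retinal progenitors, and this fit cannot decide their part. Of 24 photoreceptor markers, 21 never left the floor in cKO and 20 never left it in WT, with summed levels of 7005 to 7294 in cKO and 7062 to 7415 in WT. The 15 melanosome markers summed to 27883 to 47699 in cKO and 34834 to 49651 in WT, none at the floor, and as a covariate left differences of -1.47 (Six6) to -0.32 (Six3). By log2 fold change, 14 of the melanosome markers were lower and 1 higher in cKO, with a median of -0.09. Of 15 markers of RPE function, 10 were lower and 3 higher in cKO, with a median of -0.17. The mean log2 level of 15 RPE markers was 7.80, 7.60 and 7.78 in cKO and 8.59, 8.42 and 8.29 in WT, with summed levels of 11123 to 18559 in cKO and 17056 to 21512 in WT. Of the 15, 6 never left the floor in cKO and 4 never left it in WT, and in 6 (Ttr, Slc16a8, Rrh, Ermn, Rdh5 and Rlbp1) the libraries did not overlap, with cKO lower. Limma called 1 of them, the retinol carrier partner Ttr, with 110, 89.1 and 85.3 in cKO against 1602, 1473 and 1454 in WT (log2 fold change -3.99 ± 0.29, SE, limma adjusted p = 0.000521). The part of this difference in that of the members was not tested. Pou4f2, a ganglion cell factor downstream of Atoh7 that was picked after its values were seen, was at the floor in all 3 cKO libraries, against 72.2, 50 and 121 in WT. The part of neural retinal cells in the members' difference was not tested.

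**Figure D3:**
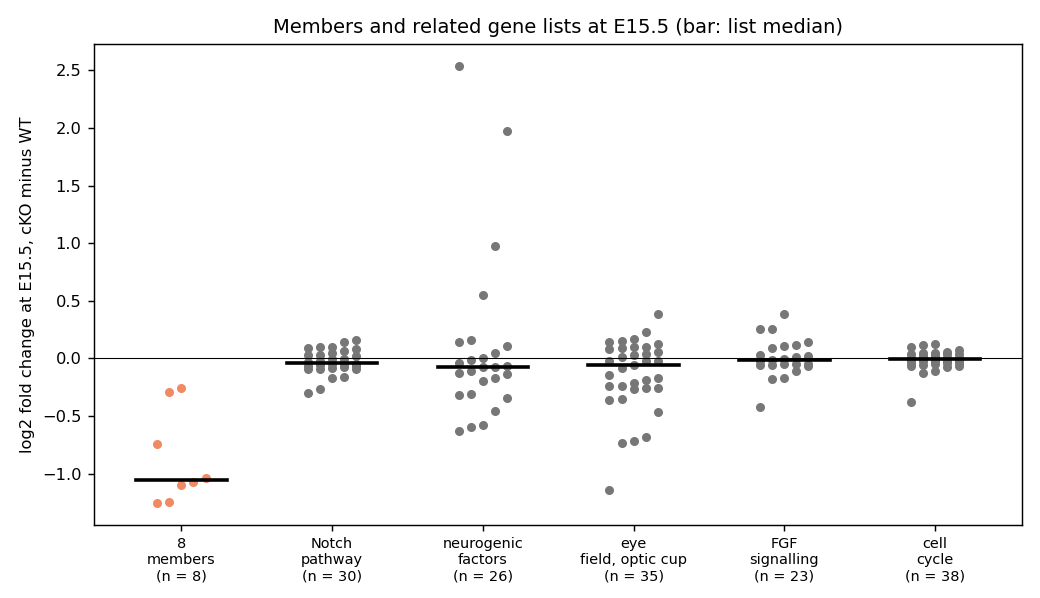
Log2 fold change at E15.5, cKO minus WT, of every tested gene of 6 lists, with the list median as a bar. The 8 members have a median of -1.05, while the medians of the Notch, neurogenic, eye field, FGF and cell cycle lists lie between -0.08 and 0.00.

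The genes that work with the 8 in the same pathways had medians near 0 as groups at E15.5, and limma called none of them. Of 30 Notch pathway genes tested, 19 were lower and 11 higher in cKO, with a median log2 fold change of -0.04. The largest values were -0.30 ± 0.30 for Dtx4, a regulator of Notch, -0.27 ± 0.51 for Hes6, which opposes Hes1, and -0.17 ± 0.34 for the Notch ligand Dll1 (SE). Hes1, another Notch effector, was at 993, 1078 and 955 in cKO and 1065, 1086 and 1060 in WT. Of 23 FGF signalling genes, 13 were lower and 10 higher, with a median of -0.02; Fgf9, a ligand that favours neural retina over RPE, had 73.0, 95.5 and 69.8 in cKO, against 107, 110 and 100 in WT. Of 38 cell cycle genes, 22 were lower and 16 higher, with a median of 0.00. Their largest value was that of the retinal progenitor cyclin Ccnd1, with 1703, 2422 and 2006 in cKO against 2880, 2513 and 2490 in WT (-0.37 ± 0.23, SE, limma adjusted p = 1).

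Of 35 other eye field and optic cup genes, 21 were lower and 14 higher in cKO at E15.5, with a median of -0.06. Values among the larger ones were -0.73 ± 0.44 for Pax2 of the optic stalk, -0.71 ± 0.66 for Hmx1 and -0.69 ± 0.51 for Zic2 (SE). Pax6, needed for eye formation, was at 2863, 1861 and 2775 in cKO and 2835, 2777 and 2662 in WT. The 26 other neurogenic factors had a median of -0.08, with 17 lower and 8 higher. The 2 with the largest values were higher in cKO in 2 libraries and at the floor in the third: Dlx1 had 1101, 839 and 50 in cKO against 50, 58.4 and 78.5 in WT, and Dlx2 had 706, 604 and 50 against 73.4, 58.2 and 81.2. These are homeobox factors of forebrain interneurons that the retina also uses, and their related gene Dlx5, picked after its values were seen, had 206, 163 and 50 in cKO against the floor in all WT libraries. In cKO replicate 3, the library with these Dlx genes at the floor, Foxn4, Atoh7, Neurog2, Six6 and Rax each had their highest cKO value. There Fgf15 lay between the other cKO libraries, and Six3 had its lowest. This is 1 library, looked at after its values were seen, with several of these values near the floor. A link between the Dlx genes and the members was not tested.

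At P5, Fgf15 and Atoh7 were at the floor, Foxn4 and Neurog2 were at or near it in all libraries but WT replicate 3, and Hes5, Six6, Rax and Six3 were measured in libraries of both genotypes. None was called for genotype, where limma called 0.244% of all genes, and none had an unadjusted p under 0.05, against 7.68% of all genes. In no member did the cKO and WT libraries separate, which 3.45% of all genes did with cKO higher and 2.73% with cKO lower. The median log2 fold change was -0.13 over the 8 and -0.02 over all genes.

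Fgf15 and Atoh7 were at the floor in all 6 P5 libraries, so no fold is given. In cKO, Foxn4 did not leave the floor, against 50, 50 and 85.1 in WT. Neurog2 had 50, 51.7 and 50 in cKO, against 50, 50 and 263 in WT. For both genes the highest value came from WT replicate 3, and the only other value off the floor was the 51.7 of Neurog2 in cKO replicate 2.

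Hes5, Six6, Rax and Six3 were measured in both genotypes at P5 and varied up to 29.4-fold within a group. Rax had 181, 698 and 461 in cKO, against 55.8, 271 and 1643 in WT, so the WT libraries held both the lowest and the highest value (log2 fold change 0.40 ± 0.95, SE, limma adjusted p = 0.979). Six6 had 50, 307 and 278 in cKO, against 61.6, 207 and 1000.1 in WT (-0.52 ± 0.90, SE, limma adjusted p = 0.956). Hes5 had 50, 92.8 and 70.8 in cKO, against 50, 90.8 and 494 in WT (-0.92 ± 0.64, SE, limma adjusted p = 0.798). Six3 had 2028, 3813 and 3381 in cKO, against 1769, 3040 and 4131 in WT, the narrowest spread of the 4 (0.08 ± 0.29, SE, limma adjusted p = 1). The 95% interval of the genotype difference ran from -1.70 to 2.51 for Rax and from -0.57 to 0.73 for Six3 on the log2 scale, so that a difference of several-fold in Rax was not detectable.

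These 4 genes were ordered over the P5 libraries much as photoreceptor markers were. The mean log2 level of 24 photoreceptor markers was 7.16, 10.31 and 9.34 in cKO and 7.20, 8.24 and 11.01 in WT, and each of the 24 left the floor in at least 1 library of either group; their summed levels ran from 9969 to 74298 in cKO and from 10697 to 138770 in WT. Six3, Six6 and Rax were highest in WT replicate 3, then in cKO replicates 2 and 3, then in WT replicate 2, and lowest in replicate 1 of both genotypes, as the photoreceptor mean was. Hes5 differed in that WT replicate 2 lay above cKO replicate 3. Retinal neuron markers ran the same way, at 6.91, 9.12 and 8.49 in cKO and 7.001, 7.78 and 9.64 in WT. Melanosome markers were lowest in WT replicate 3, at 10.02 against 10.86 to 11.81 in the other 5. The part of neural retinal cells in the P5 values was not tested. Without WT replicate 3, log2 fold changes were 1.65 ± 0.66 for Rax, 0.52 ± 0.73 for Six6, 0.03 ± 0.29 for Hes5 and 0.02 ± 0.17 for Neurog2 (SE); the last 3 turned their sign. Without WT replicate 1, Rax was at -0.78 ± 0.71 and Six3 at -0.26 ± 0.25, both of the other sign, with Six6 at -1.48 ± 0.80 and Hes5 at -1.61 ± 0.56 (SE). None of the 8 was called by limma in either case.

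**Figure D4:**
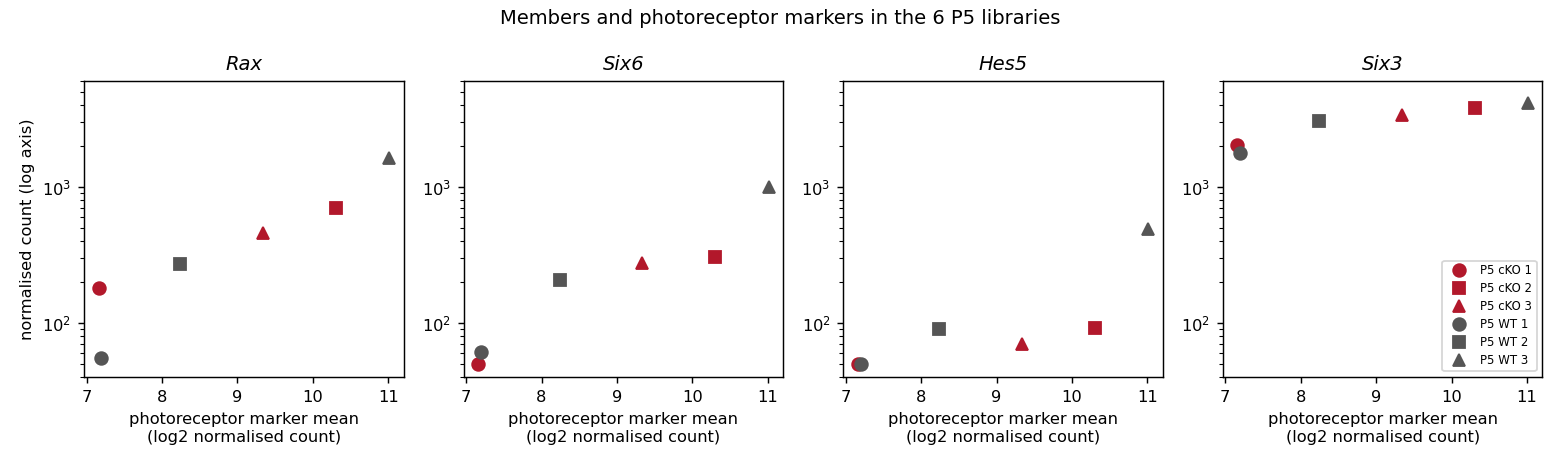
Normalised counts (log axis) of Rax, Six6, Hes5 and Six3 against the mean log2 level of 24 photoreceptor markers in the 3 cKO (red) and 3 WT (grey) libraries at P5. WT replicate 3, at a marker mean of 11.01, has the highest value of each gene; at the lowest marker means, 7.16 and 7.20, Rax was 181 in cKO and 55.8 in WT.

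The lists of related genes held no call for genotype at P5 by limma. Of the other neurogenic factors, 21 of 26 were lower and 3 higher in cKO (median log2 fold change -0.27). Of the Notch pathway genes, 18 of 30 were lower (median -0.17), with the target Hey2 at -0.86 ± 0.23 (limma adjusted p = 0.286) and the bHLH inhibitor Id1 at 1.23 ± 0.36 (limma adjusted p = 0.37, SE for both). The eye field list had a median of 0.06, the FGF list one of -0.01 and the cell cycle list one of 0.04.

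With age, Fgf15 fell and Six3 rose in both genotypes, and Atoh7 and Foxn4 fell in WT. Fgf15 was at the floor in all P5 libraries. In cKO that is at least 5.63-fold lower at P5 than at E15.5 (limma adjusted p = 1.73e-05), and in WT at least 12.1-fold (limma adjusted p = 2.41e-06). Atoh7 was at least 2.92-fold lower at P5 in WT (log2 fold change -1.41 ± 0.29, SE, limma adjusted p = 0.00381). For Foxn4 in WT the log2 fold change with age was -1.13 ± 0.24 (SE, limma adjusted p = 0.00421), or 2.18-fold lower at P5. In cKO, where E15.5 values were already near the floor, neither passed: 1.33-fold for Atoh7 (limma adjusted p = 0.33) and 1.23-fold for Foxn4 (limma adjusted p = 0.362). As 1 E15.5 cKO library was at the floor for each gene, these folds are not lower bounds. Neurog2 had log2 fold changes of -0.14 ± 0.51 in cKO and -0.61 ± 0.51 in WT (SE); the WT value was -1.40 ± 0.17 (limma adjusted p = 0.000129) without P5 WT replicate 3 and -1.24 ± 0.19 (limma adjusted p = 8e-05) with library weights.

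Six3 averaged 3074 ± 931 at P5 and 949 ± 30.7 at E15.5 in cKO (SD, n = 3 each), a log2 fold change of 1.64 ± 0.29 (SE, limma adjusted p = 0.00136). In WT it averaged 2980 ± 1182 at P5 and 1143 ± 144 at E15.5 (SD, n = 3 each), a log2 fold change of 1.31 ± 0.29 (SE, limma adjusted p = 0.00574). Even the lowest P5 library of each genotype lay above its E15.5 libraries. The overlapping Six3os1 had 2010, 3928 and 3443 at P5 in cKO and 1782, 2923 and 3427 at P5 in WT, close to Six3 library by library. Rax in cKO was higher in every P5 library than in every E15.5 library (1.998 ± 0.95, SE, limma adjusted p = 0.113), and was called without P5 WT replicate 3 (SE 0.59, limma adjusted p = 0.016), without P5 WT replicate 1 (SE 0.64, limma adjusted p = 0.0276), with library weights (2.20, limma adjusted p = 0.0335), with the retinal neuron mean as a covariate (1.43, limma adjusted p = 0.00906), with the melanosome mean (4.28, limma adjusted p = 0.0039) and in the cKO libraries alone (SE 0.47, limma adjusted p = 0.0152). In WT it overlapped between the ages, with a log2 fold change of 0.85 ± 0.95 (SE). Six6 at 1.30 ± 0.90 in cKO and 0.57 ± 0.90 in WT, and Hes5 at 0.46 ± 0.64 in cKO and 1.09 ± 0.64 in WT (log2 fold change and SE), overlapped between the ages and did not pass. With the melanosome mean as a covariate, both were called higher at P5 in cKO (limma adjusted p = 0.0175 for Six6 and 0.0046 for Hes5). Without P5 WT replicate 1, Hes5 (1.77 ± 0.56, limma adjusted p = 0.0324) and Rax (2.03 ± 0.71, limma adjusted p = 0.0497) were called higher at P5 in WT (log2 fold change and SE). Hes5 was also called in WT with library weights (0.65, limma adjusted p = 0.0122), with the lens mean as a covariate (1.92, limma adjusted p = 0.027) and with the melanosome mean (2.63, limma adjusted p = 0.00127), which also gave a call for Rax (2.89, limma adjusted p = 0.0187). As the photoreceptor markers rose with age too, with 13 of 23 tested called in each genotype, the P5 levels of Six3, Six6, Rax and Hes5 are to be read beside them.

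**Figure D5:**
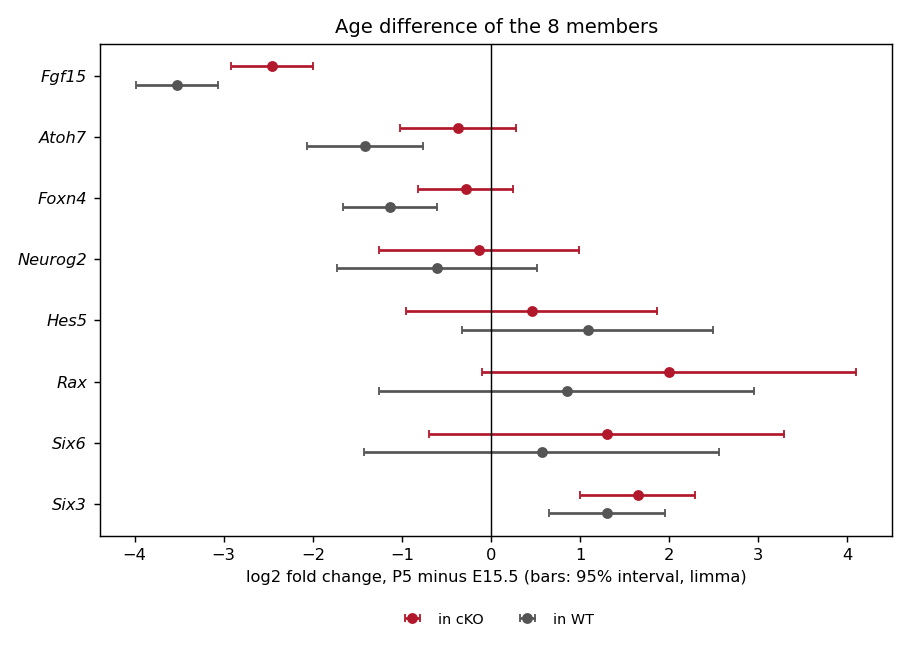
Log2 fold change of P5 minus E15.5 for each member in cKO (red) and WT (grey), with the 95% interval of the limma fit of all 12 libraries. Fgf15 is lowest at -2.46 in cKO and -3.53 in WT, both fitted with P5 values at the floor, and Six3 is at 1.64 in cKO and 1.31 in WT.

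The age comparison changed much of the transcriptome. Limma called 2 of the 8 in cKO against 43.7% of all genes, and 4 of the 8 in WT against 38.2%. In cKO 1 member was higher and 1 lower at P5, against 17.6% and 26.1% of all genes, and in WT 1 was higher and 3 lower, against 15% and 23.2%. Libraries of the ages did not overlap in 2 members with P5 higher (Rax and Six3) and 2 with P5 lower (Fgf15 and Neurog2) in cKO, against 23.8% and 34.1% of all genes. In WT they did not overlap in 1 with P5 higher (Six3) and 3 with P5 lower (Fgf15, Atoh7 and Foxn4), against 19.3% and 29.4%. With so many genes called, these counts say nothing particular of the 8. For the related lists, the numbers of genes that rose or fell are limma calls, not counts of direction. Cell cycle genes moved most evenly, as 36 of 38 fell in cKO and 37 of 38 in WT. Among them was Cdc6, which licenses replication origins (-2.13 ± 0.20 in cKO and -2.17 ± 0.20 in WT, log2 fold change and SE). The floor limits these values, as Cdc6 had 67.5, 50 and 62.4 in cKO and 81.4, 50 and 50 in WT at P5. Of 30 Notch pathway genes, 10 rose and 3 fell in cKO, and 11 rose and 2 fell in WT. Heyl, a Hes-related target, rose in both (1.35 ± 0.26 in cKO and 1.58 ± 0.26 in WT, log2 fold change and SE), while Rbpj itself fell (-1.27 ± 0.15 in cKO and -0.99 ± 0.15 in WT, log2 fold change and SE). Of 23 FGF signalling genes, 2 rose and 7 fell in cKO, and 2 rose and 4 fell in WT. Fgfr4, the receptor through which Fgf15 acts in mouse liver, fell by 3.15 in cKO and by 2.99 in WT on the log2 scale. Here too the floor limits the fall, as Fgfr4 had 75.2, 51.4 and 50 in cKO and 79.5, 50 and 50 in WT at P5. Of the 35 other eye field and optic cup genes, 8 rose and 12 fell in cKO and 5 rose and 9 fell in WT, with Six2 (-1.41 ± 0.26 in cKO and -1.43 ± 0.26 in WT) and Six4 (-1.92 ± 0.23 in cKO and -1.80 ± 0.23 in WT, log2 fold change and SE), relatives of Six3, among the falls. Of the 26 other neurogenic factors, 4 rose and 5 fell in cKO, and 5 rose and 2 fell in WT. The photoreceptor factor Crx rose in both (5.06 ± 1.18 in cKO and 5.08 ± 1.18 in WT, log2 fold change and SE). Its E15.5 values were at the floor throughout cKO and 64.8, 50 and 73.6 in WT, so the floor limits these rises.

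Whether the genotype difference changed with age was tested as an interaction, and none of the 8 was called, where limma called 0.0592% of all genes. At an unadjusted p under 0.05 it counted Fgf15, Atoh7 and Foxn4, against 2.65% of all genes. Their interaction values were 1.07 ± 0.29 for Fgf15, 1.04 ± 0.42 for Atoh7 and 0.85 ± 0.34 for Foxn4 (log2, SE, limma adjusted p = 1 each). All 3 follow from a lower cKO at E15.5 and P5 values at or near the floor in both genotypes, so the floor sets them in part. For the other 5 the interaction lay between -0.63 (Hes5) and 1.15 (Rax), each within its SE.

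Over the 12 libraries, the genes most like the mean log2 level of the 8 were Sncg (r = 0.947), a synuclein of retinal ganglion cells, the eye homeobox gene Hmx1 (r = 0.906), Suds3 (r = 0.885), the nicotinic receptor subunit Chrna3 (r = 0.884), Sephs2 (r = 0.869), Elmod2 (r = 0.866), Myb (r = 0.863) and Acvr2b (r = 0.859). Sncg had 76.7, 86.1 and 128 in cKO at E15.5, against 214, 157 and 327 in WT, without overlap (log2 fold change -1.22 ± 0.80, SE, limma adjusted p = 1). Hmx1 had 66.8, 50 and 75.8 in cKO at E15.5, against 94.8, 94.2 and 127 in WT. After group means were subtracted, which leaves mainly the spread of the P5 libraries, the most alike were Rprd1a (r = 0.983), Zfp553 (r = 0.980), Pkm (r = 0.980), Zwint (r = 0.976), Hspa4l (r = 0.976), Mns1 (r = 0.9752), Ssbp3 (r = 0.9746) and Ncoa5 (r = 0.9745). These are descriptions over 12 libraries whose points share groups, and the 2 sets had no gene in common.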

How the data were processed

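In the deposited table each cell is a signal, made by the authors from counts per gene by quantile normalisation with a floor of 50, as its name and values show. All 12 columns held the same sorted values, and 9.87% of each lay at the floor. TopHat2 2.0.10, HTSeq and the build mm10 are named per the submitters' processing notes; no source used here gives the annotation release or the strand setting, and depth is unknown. Genes above the floor in at least 3 libraries (13523 of 13942) were fitted as log2(value + 1) with 1 mean per group over all 12 libraries in limma 3.58.1 (R 4.3.3; eBayes with trend, two-sided), with Benjamini-Hochberg adjustment over all genes tested and calls at an adjusted p under 0.05. The model was tested on simulated data. Log2 fold changes are on the log2(value + 1) scale, which understates changes of low genes; a fold is a ratio of means, and one against a group at the floor is the other group's mean over 50. Single genes also had exact permutation tests. Positions are from GENCODE M21 (GRCm38). From the related lists, up to 4 genes per contrast were eligible for naming, called genes first and then by size, and the text prints some of them, with Pou4f2, Dlx5, Hes1, Pax6, Six2 and Six4 picked after their values were seen. Some genes of the lists are not reported here by name. The members and lists were chosen with earlier results of these data known. Alternatives were another pseudocount, filter, variance prior, library weights, 2 groups alone, a replicate block, marker covariates and leaving out each library.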

Additional observations from a re-analysis of the deposited data

How the results depend on the processing

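Counts of called members stayed within 1.5 times the main count, except as follows. At E15.5 none of the 8 was called for genotype, against 1 (Neurog2) with library weights, a fit whose weights stopped short of full convergence. For age in cKO, 2 were called and 6 with the melanosome mean as a covariate, where Neurog2 turned to 1.17 (limma adjusted p = 0.0441). With 1 library left out, called members ranged from 0 to 1 for genotype at E15.5, 0 to 0 at P5, 2 to 3 for age in cKO, 4 to 6 for age in WT and 0 to 0 for the interaction; the 1 at E15.5 came without P5 WT replicate 3. The direction at E15.5 was the same for all 8 under every alternative run. Many alternatives could not turn it, because they leave the E15.5 group means as they are. Examples are omitting a P5 library, another filter or another variance prior. Hes5, at the floor in all 3 cKO libraries, could not turn higher without a covariate. Over all alternatives, log2 fold changes ranged from -1.30 to -0.86 for Fgf15 and from -1.42 to -0.80 for Neurog2. The replicate block left the number of called members in each comparison as it was (0 at P5, 0 at E15.5, 2 in cKO, 4 in WT, 0 for the interaction). Same-numbered libraries correlated between -0.34 and 0.78 in their deviations from group means. The 0.78 was between replicate 1 of cKO and of WT at P5, where replicates 2 and 3 gave -0.30 and 0.19. The labels state no pairing, so the numbers were not taken as pairs, and what the replicate 1 libraries at P5 share was not tested. Over all genes, calls for genotype at P5 numbered 33, against 2 in the P5 libraries alone, 18 with the replicate block, 19 with the filter of 6 libraries, 59 with library weights, 166 with the retinal neuron mean, 227 with the melanosome mean and 12 to 132 with 1 library left out. At E15.5 they numbered 1, against 14 with library weights, 3 with the melanosome mean, 2 with the lens mean and 1 to 4 with 1 library left out. For age they numbered 5905 in cKO, against 2942 with the lens mean, and 5171 in WT, against 9606 with library weights. For the interaction they numbered 8, against 32 with library weights, 13 with the melanosome mean and 4 to 24 with 1 library left out. Atoh7 was not tested with the filter of 6 libraries. The floor of 50 limits what can be seen of Atoh7, Foxn4 and Hes5 in cKO at E15.5, and Neurog2 lay just over it there. The causes of these changes were not tested.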

Other observations

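Per kilobase of annotated exon (GENCODE M21, union of exons), the level in WT at E15.5 was highest for Six3, at 210 normalised counts per kilobase, and Fgf15, at 198, followed by Atoh7 at 89.5, Neurog2 at 60.9, Six6 at 40.2, Foxn4 at 39.96 and Rax at 28.8. Hes5 is left out of this order because 1 of its WT libraries was at the floor. In cKO at P5, where only Six3 and Rax were above the floor in all 3 libraries, Six3 stood at 564 and Rax at 76.4 normalised counts per kilobase.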
